A study of Phlebiopsis gigantea with 8 samples.

Results

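The genes described here encode 5 flavoenzymes of the glucose-methanol-choline (GMC) family of the white-rot fungus Phlebiopsis gigantea, an early colonizer of freshly cut conifer wood. They were chosen by protein identifier from a table of 11891 gene models with values, with earlier results of the same table known. Proteins 120749 and 108516 are named methanol oxidases (MOX) in the table, and proteins 121514, 128108 and 128071 are named GMC oxidoreductases. They are written with the prefix of the genome (Phlgi1_120749 and so on). Another 17 genes carry the name of a GMC oxidoreductase or methanol oxidase in that table, which makes 22 with the 5 described here. In the study's own classification, Phlgi1_121514 and Phlgi1_128071 are aryl alcohol oxidases (AAO) and Phlgi1_128108 is a glucose oxidase (GOX). The deposited table makes none of these assignments. All 5 have the same first domain in the table, the N-terminal GMC oxidoreductase domain.

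RNA was sequenced from mycelium after 5 days in 250 ml of basal salts medium with 1 of 3 carbon sources. NELP cultures (n = 3) grew on freshly harvested, ground loblolly pine to which acetone had been added and then dried off. ELP cultures (n = 3) grew on the same wood after Soxhlet extraction with acetone, which removes resin and other extractives, and Glc cultures (n = 2) grew on glucose alone. The gene models are those of 1 strain grown from a single basidiospore, and the labels do not name the strain of the cultures. No medium combined wood with glucose.

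GMC oxidoreductases carry FAD and oxidize an alcohol group of their substrate. Those that act as oxidases pass the electrons to O2 and release H2O2, which wood-decay fungi use in peroxidase reactions and in Fenton chemistry. Methanol oxidase converts methanol, which is set free when methoxyl groups of lignin or pectin are removed, to formaldehyde and H2O2. Aryl alcohol oxidase acts on benzylic alcohols, which aryl alcohol dehydrogenases can form again from the aldehydes, and glucose oxidase acts on β-D-glucose. Formaldehyde is further oxidized through formate to CO2 by glutathione-dependent enzymes and formate dehydrogenase.

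Values are RPKM, reads scaled to the length of the gene model and to the size of the library, and summed to between 741008 and 890849 per library. The number of reads per library is unknown, and the spacing of low values gave depths between 0.583 and 1.79 times that of NELP library 1. The glucose libraries differed from each other more than the wood libraries did, since the middle gene had an SD of log2 values of 0.51 in Glc, 0.19 in NELP and 0.22 in ELP. Of the 10999 genes that averaged at least 1 RPKM, 35.1% were more than 2-fold apart between the glucose libraries on the scale of RPKM + 0.5. Each glucose library is therefore given singly. The median gene also had a higher value on wood than on glucose, by 0.54 in NELP and 0.60 in ELP on the log2 scale, and by -0.03 in each after the libraries were rescaled by the median of gene ratios. Expression was calculated relative to the other transcripts of a culture, so a change of 1 gene cannot be told apart from an opposite change of many others.

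Phlgi1_120749 was the most abundant GMC transcript in all libraries except Glc library 1. It stood at 10759.9, 9787 and 10917.5 RPKM in the NELP libraries, at 5019.9, 7003 and 9810.3 RPKM in the ELP libraries, and at 99.5 and 10342 RPKM in Glc libraries 1 and 2. All wood libraries and Glc library 2 were thus within about the same range, and Glc library 1 alone was low. The gene held ranks 2, 2 and 3 of all genes in NELP, ranks 10, 7 and 3 in ELP, rank 1246 in Glc library 1 and rank 4 in Glc library 2. Its share of the summed RPKM ran from 0.594% to 1.44% in the wood libraries, and was 1.2% in Glc library 2 and 0.0112% in Glc library 1.

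The difference of Phlgi1_120749 between wood and glucose was set by which glucose library served as the reference. Its mean of 10488 ± 612 RPKM in NELP (SD, n = 3) was 105-fold that of Glc library 1 and 1.01-fold that of Glc library 2. Its mean of 7278 ± 2407 RPKM in ELP (SD, n = 3) was 73.1-fold that of Glc library 1 and 0.704-fold that of Glc library 2. Fitted over both glucose libraries, the log2 differences were 3.36 in NELP and 2.79 in ELP, with a standard error (SE) of 1.57 for each, and 2.76 and 2.12 after rescaling. Between the glucose libraries the transcript differed 104-fold, and 11 of the 10999 genes had a larger gap in RPKM + 0.5. Gaps of more than 32-fold on that scale were found in 46 genes, 0.418% of those compared.

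**Figure D1:**
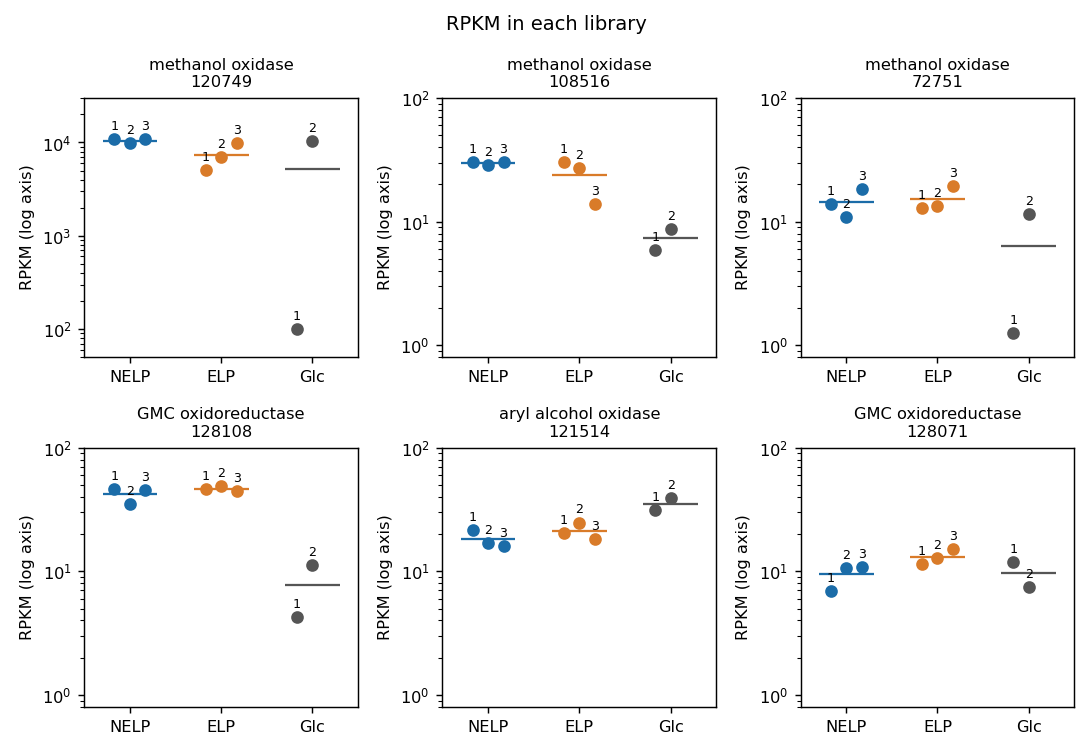
RPKM of the 3 methanol oxidases, Phlgi1_128108, Phlgi1_121514 and Phlgi1_128071 in each library, on log axes. Points are libraries with their replicate number, and horizontal lines are the means of each medium. Phlgi1_120749 is plotted on a higher range than the other genes and has Glc library 1 at 99.5 RPKM and Glc library 2 at 10342, beside the wood libraries.

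The second methanol oxidase, Phlgi1_108516, was expressed at a level far lower. Its values were 30.5, 28.9 and 30.4 RPKM in NELP, against 30.1, 27.3 and 13.9 in ELP, with 5.93 and 8.78 in Glc. Every wood library exceeded both glucose libraries, and ELP library 3 was the lowest of the wood libraries. The NELP mean of 29.9 ± 0.879 RPKM (SD, n = 3) was 5.05-fold that of Glc library 1 and 3.41-fold that of Glc library 2. The ELP mean of 23.8 ± 8.66 (SD, n = 3) was 4.003-fold and 2.71-fold those values. On the log2 scale the fitted differences from Glc were 1.98 in NELP and 1.58 in ELP (SE 0.35 for each), and 1.40 and 0.94 after rescaling.

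The third methanol oxidase gene, Phlgi1_72751, shared the low level of Phlgi1_108516 and the split between the glucose libraries of Phlgi1_120749. It was at 13.8, 10.8 and 18.4 RPKM in NELP, at 12.9, 13.2 and 19.3 in ELP, and at 1.26 and 11.5 in Glc. Glc library 2 lay between NELP library 2 and the other wood libraries, 9.15-fold above Glc library 1. Its log2 differences from Glc were 1.66 in NELP and 1.74 in ELP (SE 0.70 for each), which did not pass limma's moderated test with Benjamini-Hochberg adjustment over the 10999 genes (adjusted p = 0.099 and 0.0762). Without Glc library 2 the log2 differences were 3.05 and 3.13, and without Glc library 1 they were 0.27 and 0.36. How reads common to the 3 methanol oxidase genes were counted is not stated in the paper or the labels, and the low values beside the abundant Phlgi1_120749 may hold reads of a paralog.

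Phlgi1_128108, the gene the study classed as a glucose oxidase, had its higher values on wood. It was at 45.9, 35.0 and 45.8 RPKM in NELP, at 46.3, 48.8 and 44.4 in ELP, and at 4.29 and 11.2 in Glc. The wood libraries were all above the glucose libraries, and the wood media overlapped. The NELP mean of 42.2 ± 6.24 RPKM (SD, n = 3) was 9.85-fold that of Glc library 1 and 3.78-fold that of Glc library 2, and the ELP mean of 46.5 ± 2.24 (SD, n = 3) was 10.8-fold and 4.16-fold. The fitted log2 differences were 2.50 and 2.65 (SE 0.36 for each), and 1.93 and 2.02 after rescaling.

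The aryl alcohol oxidase Phlgi1_121514 was the only one of the 5 with lower values in all 6 wood libraries than in both glucose libraries. It was at 21.6, 17.0 and 16.0 RPKM in NELP, at 20.5, 24.8 and 18.4 in ELP, and at 31.2 and 39.4 in Glc. The NELP mean was 18.2 ± 3.02 RPKM (SD, n = 3) and the ELP mean 21.2 ± 3.28 (SD, n = 3), or 0.583-fold and 0.680-fold the value of Glc library 1 and 0.461-fold and 0.538-fold that of Glc library 2. The fitted log2 differences were -0.94 in NELP and -0.72 in ELP (SE 0.24 for each). Relative to the median gene the gap was wider, with -1.54 and -1.38 after rescaling.

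Phlgi1_128071, which the study also classed as an AAO, did not follow Phlgi1_121514. It was at 6.95, 10.6 and 10.8 RPKM in NELP, at 11.4, 12.8 and 15.2 in ELP, and at 11.9 and 7.43 in Glc. The glucose values fell among the wood values. Its fitted log2 difference from Glc was -0.02 in NELP and 0.45 in ELP (SE 0.29 for each), and rescaling moved these to -0.60 and -0.19, which turned the sign in ELP. Its NELP libraries were all below its ELP libraries, though by a small margin, with a log2 difference of -0.47 (SE 0.26).

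The order of the 5 genes changed with the carbon source. In NELP it was Phlgi1_120749, Phlgi1_128108, Phlgi1_108516, Phlgi1_121514 and Phlgi1_128071 from highest to lowest mean RPKM, and no neighbours in this order overlapped. In ELP the order of means was the same, but Phlgi1_108516 overlapped with both Phlgi1_121514 and Phlgi1_128071. In Glc, Phlgi1_120749 was followed in each library by Phlgi1_121514, which was above the other 3 genes. The last 3 places had a different order in each glucose library, since Phlgi1_128071 was above Phlgi1_108516 and Phlgi1_128108 in Glc library 1 and below both in Glc library 2.

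Because the 5 genes were chosen with their values known, their differences between media are given without a test. In 2 of the 5 genes all wood libraries were above both glucose libraries, as in 41.5% of all tested genes, and in 1 gene all were below, as in 5.45%. In 1 gene all NELP libraries were below all ELP libraries, as in 22.1% of all tested genes, and in none were they all above, as in 16.7%. Nothing further is read from these counts.

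The comparison of NELP with ELP addresses the effect of pine extractives. For the 5 genes the log2 differences ran from -0.47 for Phlgi1_128071 to 0.58 for Phlgi1_120749. The latter had an SE of 1.40 in the fit over all 8 libraries, in which the media share 1 estimate of the spread, and of 0.24 with the 6 wood libraries alone. In its own values the lowest NELP library (9787 RPKM) lay just below the highest ELP library (9810.3 RPKM). Phlgi1_108516, Phlgi1_121514 and Phlgi1_128108 had log2 differences of 0.40 (SE 0.31), -0.22 (SE 0.21) and -0.15 (SE 0.32), and overlapped between the wood media.

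**Figure D2:**
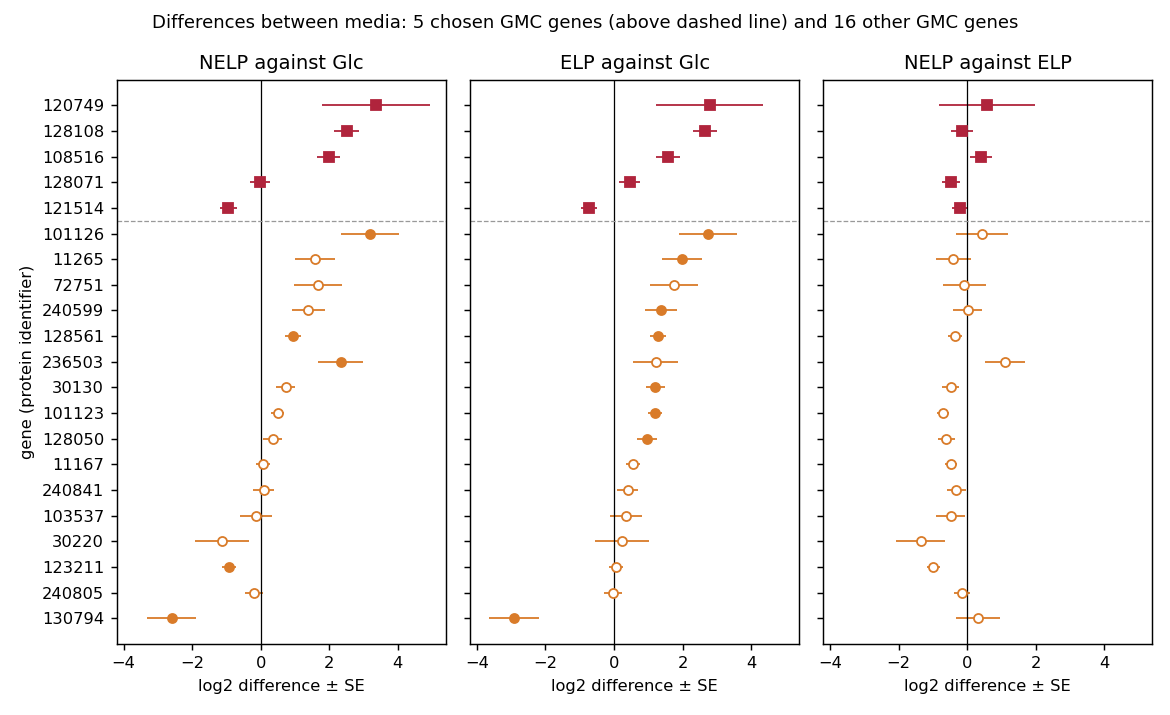
Log2 differences between media of the 5 chosen GMC genes (red squares, above the dashed line) and of the 16 other GMC genes that averaged at least 1 RPKM (orange circles), with the standard error from the limma fit over all 8 libraries. Filled circles passed the test at an adjusted p under 0.05, open circles did not, and for the squares no test result is given. Phlgi1_120749 has the widest standard error, 1.57 against Glc.

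Among the other 17 GMC genes, some were higher on wood and some lower. One of them, Phlgi1_77456, had a mean under 1 RPKM and was not tested. Of the 16 tested, 3 passed as higher in NELP than Glc and 2 as lower, and 11 did not pass, beside 29.5% of all tested genes called higher and 3.67% called lower. In ELP 7 were higher, 1 was lower and 8 did not pass, beside 37.3% and 5.14% of all tested genes. In this fit the media share 1 estimate of the spread. The middle gene had an SD of log2 values of 0.51 in Glc, 0.19 in NELP and 0.22 in ELP. With only the media compared, all the NELP calls above were lost (limma adjusted p from 0.0698 to 0.0902). Of the ELP calls, only those of Phlgi1_128561 and Phlgi1_101123 then held (limma adjusted p = 0.04 and 0.0365). The median log2 difference of the 16 was 0.42 in NELP and 1.08 in ELP, beside 0.54 and 0.60 over all tested genes. The 16 are the part of the family left after the 5 genes were taken out with results known. Their counts and median are therefore not those of the whole family. After rescaling, 0 were higher and 2 lower in NELP, beside 6.56% and 7.07% of all tested genes, and 1 was higher and 1 lower in ELP, beside 10.6% and 11.4%. The count of higher genes in NELP depended on single libraries and fell to 0 without any 1 of the NELP libraries and to 1 without ELP library 2. The count of lower genes in NELP fell to 1 without NELP library 1, NELP library 2, ELP library 1 or ELP library 2, and to 0 without NELP library 3. In ELP the count of higher genes fell to 3 without ELP library 1 or ELP library 2, and to 4 without NELP library 2, NELP library 3 or ELP library 3.

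The highest of these genes on wood was Phlgi1_101126, a GMC oxidoreductase with no further assignment in the table. It was at 179, 184 and 218 RPKM in NELP, at 103, 128 and 222 in ELP, and at 6.06 and 69.4 in Glc, so that every wood library was above both glucose libraries. Its log2 difference was 3.17 in NELP (SE 0.85, limma adjusted p = 0.027) and 2.74 in ELP (SE 0.85, adjusted p = 0.0337). Of 15 alternatives, 7 lost the NELP call, among them rescaling (adjusted p = 0.0715) and leaving out NELP library 1, 2 or 3 or ELP library 2, and 11 lost the ELP call, among them rescaling (adjusted p = 0.101) and leaving out any single library but Glc library 2. The log2 difference was 1.47 in NELP and 1.04 in ELP without Glc library 1, and 4.88 and 4.45 without Glc library 2.

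Phlgi1_130794 had the opposite pattern and was the highest GMC transcript in Glc library 1 and the next after Phlgi1_120749 in Glc library 2. It was at 600 and 74.2 RPKM in Glc libraries 1 and 2, at 30.0, 33.5 and 41.1 in NELP, and at 28.3, 27.8 and 26.5 in ELP. The wood libraries lay close together and below both glucose libraries. Its log2 difference was -2.60 in NELP (SE 0.72, limma adjusted p = 0.0301) and -2.92 in ELP (SE 0.72, adjusted p = 0.0157), and both passed after rescaling (adjusted p = 0.0377 and 0.0205). With only the media compared both were lost (adjusted p = 0.0902 and 0.0566). The NELP call was lost under 8 of 15 alternatives, among them leaving out NELP library 1, 2 or 3 or ELP library 1 or 2, and the ELP call under 1. The size rested on the glucose library used, with -1.09 and -1.42 without Glc library 1 and -4.10 and -4.42 without Glc library 2.

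Smaller differences were found in 6 other genes. Phlgi1_128561 was higher in NELP by 0.94 (SE 0.23, limma adjusted p = 0.0218) and in ELP by 1.29 (SE 0.23, adjusted p = 0.00613) on the log2 scale. Phlgi1_101123, Phlgi1_30130 and Phlgi1_128050 were higher in ELP alone by the test, with log2 differences of 1.20, 1.21 and 0.95 and adjusted p values of 0.00493, 0.0122 and 0.0309 by limma. In the same comparison Phlgi1_11265 and Phlgi1_240599 had log2 differences of 1.99 and 1.37 (adjusted p = 0.0281 and 0.049 by limma). Their glucose libraries lay apart, at 21.6 and 7.55 RPKM for Phlgi1_11265 and at 1.85 and 8.03 RPKM for Phlgi1_240599. Of the ELP calls in these 6 genes, only that of Phlgi1_128561 held after rescaling (adjusted p = 0.0464). The NELP call of Phlgi1_128561 was lost without any 1 NELP library. It was also lost after rescaling (limma adjusted p = 0.230) and with only the media compared (adjusted p = 0.0782). Leaving out a single library lost the ELP call of Phlgi1_128050 in 6 of 8 cases, that of Phlgi1_240599 in 7 of 8 and that of Phlgi1_11265 in 3 of 8 (without ELP library 1 or 2 or Glc library 2), and lost those of Phlgi1_128561, Phlgi1_101123 and Phlgi1_30130 in 0 of 8.

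Phlgi1_123211 is named a GMC oxidoreductase in the table, and the study lists it as a possible glucose oxidase. Its values were 12.9, 14.0 and 9.91 RPKM in NELP, against 25.5, 22.5 and 26.0 in ELP, with 23.1 and 24.0 in Glc. The NELP libraries were all below the rest. The log2 difference from Glc was -0.93 in NELP (SE 0.21, limma adjusted p = 0.0177) and 0.06 in ELP (SE 0.21, adjusted p = 0.838). The NELP call was lost without NELP library 3 (limma adjusted p = 0.0562) and with only the media compared (adjusted p = 0.0698). Between NELP and ELP it was -0.99, which did not pass in the fit over all libraries (adjusted p = 0.0973).

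The spread of the glucose libraries entered the comparison of the wood media as well. In the fit over all 8 libraries 0 of the 16 other GMC genes passed between NELP and ELP, beside 0.00909% of all tested genes called higher in NELP and 0% called lower, and 4 had an unadjusted p under 0.05. With the 6 wood libraries alone, limma called 1 higher and 4 lower in NELP, against 6.12% and 4.28% of all tested genes. The lower genes were Phlgi1_123211 (adjusted p = 0.0195), Phlgi1_101123 (0.0306), Phlgi1_128050 (0.046) and Phlgi1_30130 (0.0488), with log2 differences of -0.99, -0.71, -0.61 and -0.49. The higher gene was Phlgi1_236503, with 1.11 (SE 0.23, adjusted p = 0.0321). Leaving out either glucose library gives the same fit by construction, since the lone glucose library has no spread of its own.

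Phlgi1_236503 follows the aryl alcohol oxidase Phlgi1_121514 directly in the annotation of assembly Phlgi1, and the adjacent genes differed in where they were highest. Phlgi1_236503 was at 56.2, 55.3 and 35.8 RPKM in NELP, at 19.6, 27.9 and 19.4 in ELP, and at 3.46 and 23.1 in Glc. NELP was above all other libraries, while Phlgi1_121514 had its highest values in Glc. The log2 difference of Phlgi1_236503 from Glc was 2.33 in NELP (SE 0.65, limma adjusted p = 0.0311) and 1.22 in ELP (SE 0.65, adjusted p = 0.164), and the NELP call was lost after rescaling (adjusted p = 0.0931) and without NELP library 1, 2 or 3 or ELP library 1 or 2. None of the neighbours found for the other 4 genes was named a GMC gene. Beside Phlgi1_120749 were a gene with no function name, Phlgi1_195706, at 4.52 to 11.7 RPKM over the 8 libraries, and Phlgi1_109638, a rab guanyl-nucleotide exchange factor, at 13.2 to 25.2, neither of which had the gap between the glucose libraries.

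**Figure D3:**
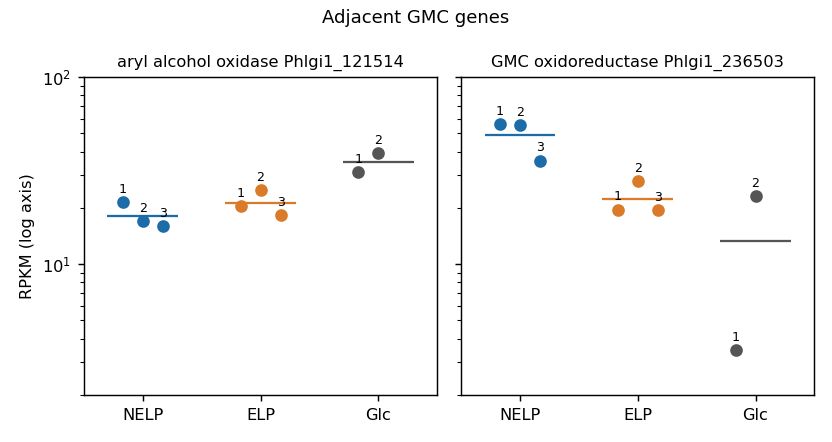
RPKM of the adjacent genes Phlgi1_121514 and Phlgi1_236503 in each library on a shared log axis. Points are libraries with their replicate number, and lines are the means of each medium. Phlgi1_236503 lies between 35.8 and 56.2 RPKM on NELP and at 3.46 and 23.1 in Glc, while Phlgi1_121514 lies between 16.0 and 24.8 RPKM on wood and at 31.2 and 39.4 in Glc.

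The split of the glucose libraries did not run one way through the family. Of the 16 other GMC genes, 5 had more than 2 times the RPKM in Glc library 2, 5 had under 0.5 times and 6 lay between. On the scale of RPKM + 0.5, 4 were more than 2-fold higher in Glc library 2, 4 were more than 2-fold lower and 8 were within 2-fold. On that scale 35.1% of all tested genes were more than 2-fold apart. The median difference of log2(RPKM + 0.5) between the glucose libraries was 0.11 for the 16 genes and 0.30 for all tested genes. Phlgi1_101126 was 11.5-fold higher in Glc library 2, whereas Phlgi1_130794 was at 0.124 times its value in Glc library 1. Among the 5 genes, Phlgi1_108516, Phlgi1_121514 and Phlgi1_128071 were within 2-fold, with ratios of library 2 to library 1 of 1.48, 1.26 and 0.626, and Phlgi1_128108 had a ratio of 2.60.

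**Figure D4:**
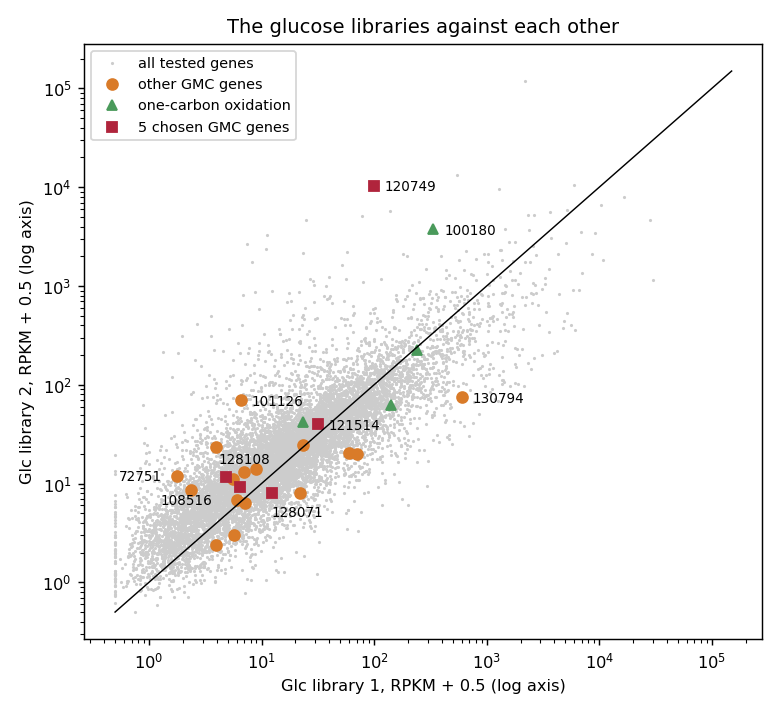
RPKM + 0.5 in Glc library 1 (x) and Glc library 2 (y) on log axes for all 10999 tested genes (grey), the 5 chosen GMC genes (red squares), 16 other GMC genes (orange circles) and 4 genes of one-carbon oxidation (green triangles). The diagonal marks equal values. Phlgi1_120749 lies above it with an RPKM ratio of 104 between the libraries, as does the formate dehydrogenase Phlgi1_100180 with a ratio of 11.2, while Phlgi1_130794 lies below it.

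The 4 genes listed for one-carbon oxidation did not move together between the media. Of these, Phlgi1_18032 was listed only as a possible glutathione-dependent formaldehyde-activating enzyme. The NAD-dependent formate dehydrogenase Phlgi1_100180 was at 1031, 902 and 795 RPKM in NELP, at 1282, 1223 and 728 in ELP, and at 335 and 3745 in Glc. It shared with Phlgi1_120749 the low value in Glc library 1, but its value in Glc library 2 was above every wood library. Its log2 differences from Glc were -0.31 in NELP and -0.10 in ELP (SE 0.85 for each, limma adjusted p = 0.794 and 0.933). The second formate dehydrogenase, Phlgi1_25241, ranged from 36.4 to 683 RPKM over the wood libraries and was at 238 and 224 in Glc. Of the list of 4 genes, 1 fell on NELP relative to Glc and 0 rose, beside 3.67% and 29.5% of all tested genes. In ELP 0 passed in either direction, beside 5.14% called lower and 37.3% called higher, and 0 had an unadjusted p under 0.05. The lower gene was Phlgi1_124928, a glutathione-dependent formaldehyde-activating enzyme, at 28.8, 33.9 and 25.7 RPKM in NELP and 139 and 61.5 in Glc (log2 difference -1.65, SE 0.45, limma adjusted p = 0.0289). That call was lost without any 1 of the NELP libraries or without ELP library 2, and without Glc library 1 the log2 difference was -1.06. The log2 difference of Phlgi1_100180 changed sign with the glucose library used. Without Glc library 1 it was -2.05 in NELP and -1.84 in ELP, and without Glc library 2 it was 1.43 and 1.64. Those fits leave a lone glucose library, which has no spread of its own, so no test is read from them. The list's median log2 difference was -0.61 in NELP and -0.34 in ELP, beside 0.54 and 0.60 over all tested genes. Between NELP and ELP, 0 of the 4 passed, beside 0.00909% of all tested genes called higher in NELP and 0% called lower. Of the 4, 2 had an unadjusted p under 0.05. With the wood libraries alone 1 passed as lower in NELP, beside 4.28% of all tested genes called lower and 6.12% called higher. This was Phlgi1_18032 (log2 difference -1.54, limma adjusted p = 0.0107), which the table names hypothetical.

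Aryl alcohol dehydrogenases (AAD) reduce aromatic aldehydes to the alcohols that AAO oxidizes. Of 8 AAD genes, 7 were tested, of which 1 rose on NELP relative to Glc and 4 rose on ELP. The shares of all tested genes called higher were 29.5% in NELP and 37.3% in ELP. None of the 7 was lower in either, beside 3.67% of all tested genes in NELP and 5.14% in ELP. The median log2 difference was 0.45 in NELP and 0.74 in ELP, near the 0.54 and 0.60 of all tested genes. Phlgi1_89048 was the one that passed in each wood medium, at 347, 342 and 257 RPKM in NELP, at 200, 153 and 124 in ELP and at 93.5 and 81.4 in Glc. Its log2 difference was 1.84 in NELP (SE 0.26, limma adjusted p = 0.00542) and 0.83 in ELP (SE 0.26, adjusted p = 0.0367), and the NELP call alone held after rescaling (adjusted p = 0.0239 against 0.657). The other AAD genes called in ELP, Phlgi1_105456, Phlgi1_147847 and Phlgi1_127405, had log2 differences of 1.30, 0.96 and 0.74 (adjusted p = 0.0402, 0.0304 and 0.0409 by limma), none of which passed after rescaling. The ELP count fell to 0 without NELP library 2, ELP library 1 or ELP library 2, and to 2 without NELP library 1. Without Glc library 1 the ELP log2 differences of Phlgi1_105456, Phlgi1_147847, Phlgi1_127405 and Phlgi1_89048 were 0.84, 1.22, 0.89 and 0.93. Without Glc library 2 they were 1.76, 0.70, 0.59 and 0.73. Those fits leave a lone glucose library, so no count is read from them. Between NELP and ELP 0 of the 7 passed, beside 0.00909% of all tested genes called higher in NELP and 0% called lower. Of the 7, 1 had an unadjusted p under 0.05. With the wood libraries alone 1 passed as higher in NELP, beside 6.12% of all tested genes called higher and 4.28% called lower. This was Phlgi1_89048 (log2 difference 1.00, limma adjusted p = 0.0342).

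More distant flavoenzymes of the same superfamily gave a reference for the size of these differences. Cellobiose dehydrogenase (CDH), Phlgi1_99876, which oxidizes cellobiose and passes electrons to lytic polysaccharide monooxygenases, was at 645, 618 and 546 RPKM in NELP, at 453, 338 and 229 in ELP, and at 9.84 and 14.5 in Glc. Its log2 difference was 5.60 in NELP and 4.72 in ELP (SE 0.32 for each, limma adjusted p = 1.8e-04 and 3.3e-04), larger than that of any GMC gene tested in each medium. Pyranose 2-oxidase (P2O), Phlgi1_130349, an H2O2-forming sugar oxidase, was at 16.5 to 19.9 RPKM in NELP, at 19.9 to 24.2 in ELP and at 11.2 and 14.3 in Glc. Its log2 difference was 0.47 in NELP (SE 0.21, adjusted p = 0.117) and 0.80 in ELP (SE 0.21, adjusted p = 0.0203), and neither passed after rescaling. The ELP call was also lost without ELP library 1 or 2.

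The genes most like each of the 5 were sought among 1012 others with a function name and a mean of at least 10 RPKM, by Pearson's r of log2(RPKM + 0.5) over the 8 libraries. These r values describe 8 libraries of 3 media, and the genes of each pair share the medium and depth of every library. For Phlgi1_120749 they were the ABC protein Phlgi1_27132 (r = 0.985), the GH37 enzyme Phlgi1_129041 (r = 0.984) and the GH23 enzyme Phlgi1_109873 (r = 0.981). Each had its lowest value in Glc library 1, as Phlgi1_129041 shows with 18.0 RPKM there, 711 in Glc library 2 and 803 to 988 on wood. The gap of Phlgi1_109873 was smaller, at 274 and 748 RPKM in Glc libraries 1 and 2 and 714 to 812 on wood. How far these r values rest on Glc library 1 was not tested. For Phlgi1_108516 they were the GH51 arabinofuranosidase Phlgi1_91823, the GH61 gene Phlgi1_79150 and the GH55 exo-β-1,3-glucanase Phlgi1_88425 (r between 0.985 and 0.986). These shared the low value of ELP library 3 among the wood libraries, at 28.3, 17.2 and 18.0 RPKM. For Phlgi1_128108 they were the GH115 gene Phlgi1_121944 (r = 0.994), the CE8 pectinesterase Phlgi1_30798 (r = 0.993) and the malate synthase Phlgi1_127815 (r = 0.993).

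The AAO Phlgi1_121514 had its closest likeness to genes that were high on glucose. These were the GH128 gene Phlgi1_31856 (r = 0.949), the tetraspanin Phlgi1_250778 (r = 0.917) and the oxalate decarboxylase Phlgi1_66932 (r = 0.909), the last of which was at 545 and 13249 RPKM in Glc and at 23.4 to 113 on wood. Phlgi1_128071 had the weakest matches past the first, with r = 0.922 for the vacuolar protein-sorting gene Phlgi1_97024, 0.872 for the cytochrome P450 Phlgi1_98480 and 0.868 for Phlgi1_72178. Within the family, r over the 8 libraries was 0.963 between Phlgi1_120749 and the third methanol oxidase Phlgi1_72751, 0.662 between Phlgi1_120749 and Phlgi1_108516, and 0.903 between Phlgi1_108516 and Phlgi1_128108. As given above, the low values of Phlgi1_72751 and Phlgi1_108516 may hold reads of a paralog, which would enter these r values. The AAO genes Phlgi1_121514 and Phlgi1_128071 had r = -0.369.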

How the data were processed

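RNA was extracted from mycelium of 3 NELP, 3 ELP and 2 Glc cultures, selected for poly(A), and sequenced as multiplexed libraries. Per the labels, base calling used CASAVA 1.8.2. The authors mapped the reads with the DNAStar modules SeqNGen and Qseq (versions not stated) and deposited RPKM values per gene model. No source read here states how reads with several matches were handled, and the deposited values are not counts.

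Groups came from the sample labels. Of 11892 gene models, 11891 had values. Values were transformed as log2(RPKM + 0.5), genes averaging 1 RPKM or more were kept (10999), and 1 linear model of the 3 media was fitted with limma 3.58.1 in R 4.3.3, with Benjamini-Hochberg adjustment over all tested genes and a threshold of 0.05. Log2 differences and their SE are on the log2(RPKM + 0.5) scale, which understates changes of low genes, while folds between a mean and a library are plain ratios of RPKM. The labels call the libraries separate cultures. With 3 against 3 or 2 libraries an exact permutation test of 1 gene cannot reach 0.05, so only the fit across genes was tested. The scripts were tested on simulated data. Relative depth was taken from the most frequent ratio between libraries of values under 0.2 RPKM.

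The 5 genes and all gene lists were chosen with earlier results of these data known, so the 5 have no p-value. The tests of the other lists carry the same limit. Genes named were these 5, the third methanol oxidase, the second glucose oxidase candidate, CDH and P2O, list members that passed the test in any comparison, up to 3 most similar genes for each of the 5, and their neighbours. Neighbours came from the reference annotation of assembly Phlgi1, in which 11824 of 11891 identifiers were found by locus tag. Alternatives were pseudocounts of 0.1 and 1, no filter, rescaling by the median of gene ratios, fits of only the media compared, a mean-dependent prior variance, a replicate block, and leaving out each library.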

Additional observations from a re-analysis of the deposited data

How the results depend on the processing

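Of the log2 differences of the 5 genes and the counts of called genes, none moved with pseudocounts of 0.1 or 1. Rescaling by the median of gene ratios gave 2.76 in NELP and 2.12 in ELP for Phlgi1_120749, against 3.36 and 2.79 as deposited. Both lay within 1 residual SD of the values reported, but that SD was 2.14 and takes in the gap between the glucose libraries. The limit thus cannot tell whether this gene moved. Rescaling moved Phlgi1_108516 to 1.40 in NELP and 0.94 in ELP, and Phlgi1_121514 to -1.54 and -1.38. It moved Phlgi1_128071 to -0.60 and -0.19, and Phlgi1_128108 to 1.93 and 2.02. It set the other GMC genes called higher to 0 in NELP and 1 in ELP, the AAD genes in ELP to 0 higher and 1 lower, and the one-carbon genes called lower in NELP to 2. With only the libraries of the media compared, the other GMC genes were 0 higher and 0 lower in NELP, 2 higher and 0 lower in ELP, and 1 higher and 4 lower in NELP against ELP. The AAD genes then were 0 higher in ELP and 1 higher in NELP against ELP, and the one-carbon genes 0 lower in NELP and 1 lower in NELP against ELP. Without the filter on low values 1 other GMC gene was lower in NELP, and with the mean-dependent prior variance 2 one-carbon genes were lower there. The cause of these shifts was not tested.

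Same-numbered libraries did not all deviate together, with r = 0.403, -0.145 and 0.499 between NELP and ELP over the tested genes, and the labels give the numbers no further meaning. With the replicate number as a block, 1 other GMC gene was lower in NELP and 4 were higher in ELP, and no other count or value of the 5 genes changed beyond the limits used. Libraries with different numbers were not compared in this way, so these r values cannot decide whether the numbers pair cultures. As the labels name no pairing, the main fit used none.

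Leaving out 1 library at a time, the log2 difference of Phlgi1_120749 ran from 0.019 to 6.71 for NELP and from -0.56 to 6.13 for ELP, both ends set by which glucose library was left out, and that of Phlgi1_128108 from 1.86 to 3.15 and from 2.01 to 3.29. The counts of other GMC genes ran from 0 to 8 higher and 0 to 3 lower in NELP, from 3 to 9 higher in ELP, and from 0 to 1 higher and 0 to 4 lower in NELP against ELP. Those of AAD genes ran from 1 to 2 higher in NELP, 0 to 4 in ELP and 0 to 1 in NELP against ELP. Those of one-carbon genes ran from 0 to 1 higher and 0 to 2 lower in NELP, from 0 to 2 higher and 0 to 1 lower in ELP, and from 0 to 1 lower in NELP against ELP. With 2 glucose libraries that differ this much, wood against glucose rests on few values, and without 1 of them the lone library is assumed to vary like the other media.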

Other observations

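In the table, 24 gene models have a GMC domain as their first domain, and 2 of these have no function name. They were found after the values had been seen. Phlgi1_65919 was at 8.05, 8.69 and 7.98 RPKM in NELP, at 6.54, 7.86 and 5.12 in ELP, and at 2.30 and 4.25 in Glc, so that its wood libraries were all above both glucose libraries. Its log2 difference was 1.26 in NELP (SE 0.28, limma adjusted p = 0.016) and 0.92 in ELP (SE 0.28, adjusted p = 0.0321), and neither passed after rescaling (adjusted p = 0.0882 and 0.348). Phlgi1_39380 was between 1.51 and 5.49 RPKM over the 8 libraries. It passed in no comparison as deposited, and passed as lower in NELP than in Glc after rescaling (log2 difference -1.58, limma adjusted p = 0.0466).

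Catalase, which breaks down H2O2, was looked up after the values of Phlgi1_120749 had been seen. Phlgi1_83711, named catalase in the table, was at 1766, 1418 and 1545 RPKM in NELP, at 1285, 1398 and 1115 in ELP, and at 197 and 1998 in Glc. It thus had the low value in Glc library 1 that Phlgi1_120749 had, with r = 0.974 between the transcripts over the 8 libraries. That r describes 8 points, in each of which both genes share the medium and depth of the library.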
